A study of Mus musculus with 2 samples.

Results

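The tripartite motif (TRIM) family is a large group of genes whose proteins share a RING finger, 1 or more B-boxes and a coiled coil, followed by a variable C-terminal part. The genes described here are those whose symbol is Trim followed by a number and at most 1 letter and which have at least 1 protein-coding transcript in the annotation. There were 67 of them among the 21951 protein-coding genes and the 55536 named genes of the tables. They were divided into 15 interferon-linked genes, listed from background knowledge of interferon-induced mouse TRIM genes, and 52 other TRIM genes.

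All values come from 1 group of macrophages grown from the bone marrow of C57BL/6J mice. The cells were kept in 100 ng/ml Lipid A for 12 h, left without it for 12 h, and given 100 ng/ml Lipid A for a further 40 min. Lipid A, the membrane anchor of lipopolysaccharide, is an agonist of TLR4. Ribosomal-RNA-depleted total RNA of the nuclear fraction, called nucleoplasmic in the labels, was sequenced in 2 libraries. The labels number them biological replicates 1 and 2 but give both the same donor entry, so their spread need not cover differences between animals. RNA input was 1 µg for library 1 but 500 ng for library 2, and input and replicate number cannot be told apart. Neither the sex nor the age of the animals was collected. No unexposed or singly exposed cells belong to the series, so the values are levels in restimulated cells and not responses to Lipid A, and no test between conditions was possible.

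TRIM proteins are best known as ubiquitin ligases: the RING finger recruits a ubiquitin-charged E2 enzyme, the coiled coil makes the protein an antiparallel dimer, and the C-terminal part, often a PRY-SPRY domain, binds the target. In macrophages, members of the family act on both sides of innate sensing, some carrying signals from Toll-like and nucleic acid receptors to NF-κB and the interferon regulatory factors and others shutting those signals off. Interferon induction of TRIM genes often runs through the ISRE, the interferon-stimulated response element, a short DNA element in promoters.

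Expected counts over named genes summed to 19797829 in library 1 and 17213606 in library 2. All 8 macrophage markers examined were detected, at 32.2 to 1421 TPM (transcript level scaled by length and by the library's total). No T cell, B cell, natural killer cell, neutrophil, erythroid or fibroblast marker was detected, and none of them exceeded 0.1 TPM. Of 3 endothelial markers 1 was detected, Pecam1 at 1.94 TPM in library 1 against 1.14 TPM in library 2, a gene that myeloid cells also express. Cdh5 was not called detected but had 14 counts (0.79 TPM) in library 1 and 5 counts (0.06 TPM) in library 2. Tie1 had 0 counts in both libraries. Mitochondrial transcripts took 2.63% of counts in library 1 and 6.60% in library 2, and the part of this difference in the values below was not tested. In bulk RNA, fewer cells that express a gene and less RNA per cell cannot be told apart.

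The promoters of the interferon-linked genes are shown first, because most of them carry the same short element and because close paralogs differ in it. Each window below is RefSeq sequence of build GRCm38.p6, 300 bases from 250 before to 50 after an annotated start, written 5′ to 3′ along the gene's own strand. Capitals mark a match to the ISRE core on either strand: GAAA, any 2 bases and GAAA, or its reverse complement, TTTC, any 2 bases and TTTC. Windows that hold no match have no capitals.
Trim30a: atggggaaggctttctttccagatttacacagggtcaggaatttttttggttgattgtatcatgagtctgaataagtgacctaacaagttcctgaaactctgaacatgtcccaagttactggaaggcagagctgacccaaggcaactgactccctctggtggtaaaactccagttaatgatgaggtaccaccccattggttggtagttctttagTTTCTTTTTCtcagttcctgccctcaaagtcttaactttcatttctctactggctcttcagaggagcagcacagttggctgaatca
Trim30d: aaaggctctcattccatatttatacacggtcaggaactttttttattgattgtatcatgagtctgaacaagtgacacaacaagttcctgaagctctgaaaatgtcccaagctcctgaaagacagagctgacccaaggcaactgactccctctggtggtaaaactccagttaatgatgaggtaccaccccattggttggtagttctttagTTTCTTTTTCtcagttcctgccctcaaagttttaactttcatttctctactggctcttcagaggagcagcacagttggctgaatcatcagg
Trim30c: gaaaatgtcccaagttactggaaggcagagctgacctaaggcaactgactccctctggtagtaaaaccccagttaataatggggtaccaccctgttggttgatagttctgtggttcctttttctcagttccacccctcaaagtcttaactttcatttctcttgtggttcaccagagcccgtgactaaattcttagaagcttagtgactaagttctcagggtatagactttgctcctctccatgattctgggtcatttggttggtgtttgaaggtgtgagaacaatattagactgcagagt
Trim12a: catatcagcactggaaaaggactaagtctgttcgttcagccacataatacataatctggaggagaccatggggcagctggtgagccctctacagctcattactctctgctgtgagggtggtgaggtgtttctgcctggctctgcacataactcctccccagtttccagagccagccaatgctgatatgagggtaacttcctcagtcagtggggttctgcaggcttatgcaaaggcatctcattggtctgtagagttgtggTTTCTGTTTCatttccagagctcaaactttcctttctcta
Trim34a: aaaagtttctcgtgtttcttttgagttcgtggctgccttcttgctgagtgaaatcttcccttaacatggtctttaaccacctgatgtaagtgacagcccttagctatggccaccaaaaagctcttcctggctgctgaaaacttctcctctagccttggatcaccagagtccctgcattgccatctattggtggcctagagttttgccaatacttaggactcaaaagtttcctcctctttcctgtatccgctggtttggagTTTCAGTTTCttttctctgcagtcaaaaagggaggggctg
Trim34b: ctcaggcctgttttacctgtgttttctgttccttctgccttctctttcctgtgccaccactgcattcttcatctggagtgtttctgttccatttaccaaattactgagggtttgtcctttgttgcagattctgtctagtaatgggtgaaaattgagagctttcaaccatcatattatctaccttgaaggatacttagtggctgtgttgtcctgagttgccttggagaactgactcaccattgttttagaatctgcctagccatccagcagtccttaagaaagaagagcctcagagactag
Trim21: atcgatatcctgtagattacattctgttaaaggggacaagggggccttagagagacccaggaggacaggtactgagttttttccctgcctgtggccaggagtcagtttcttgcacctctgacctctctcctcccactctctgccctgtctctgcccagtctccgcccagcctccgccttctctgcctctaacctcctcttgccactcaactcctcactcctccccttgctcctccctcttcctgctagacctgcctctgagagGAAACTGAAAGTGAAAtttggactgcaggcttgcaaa
Trim26: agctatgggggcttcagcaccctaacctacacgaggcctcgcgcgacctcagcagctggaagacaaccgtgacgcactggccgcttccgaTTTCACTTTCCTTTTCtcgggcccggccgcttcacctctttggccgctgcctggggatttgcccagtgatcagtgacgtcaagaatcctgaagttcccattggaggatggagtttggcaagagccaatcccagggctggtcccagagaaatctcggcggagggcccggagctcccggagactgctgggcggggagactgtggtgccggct
The windows lie at chr7:104465144-104465443 (Trim30a), chr7:104507800-104508099 (Trim30d), chr7:104400729-104401028 (Trim30c), chr7:104315446-104315745 (Trim12a) and chr7:102565433-102565732 (Trim21), all on the minus strand. Those of Trim34a at chr7:104244207-104244506, Trim34b at chr7:104329221-104329520 and Trim26 at chr17:36836896-36837195 are on the plus strand.

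RefSeq windows were used for 14 of the 15 interferon-linked genes and 38 of the 52 other TRIM genes. The genes with no window were Trim3, Trim8, Trim11, Trim14, Trim16, Trim17, Trim29, Trim33, Trim35, Trim36, Trim43b, Trim43c, Trim50, Trim55 and Trim65. An ISRE core match was present for 8 of those 14 interferon-linked genes (57.1%), namely Trim5, Trim12a, Trim12c, Trim21, Trim26, Trim30a, Trim30d and Trim34a. It was present for 1 of the 38 other TRIM genes (2.63%), Trim2, in 1 of its 5 windows. Over all 27025 genes with a window the share was 3.99%. Trim21 and Trim26 each held 2 overlapping matches, which share 4 bases and are printed above as 1 run of capitals. The interferon-linked list was drawn up from knowledge of interferon induction, so an element of that pathway is not independent of the way the list was made.

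The GAS element, TTCNNNGAA on either strand, is a promoter element of the interferon gamma response. It was matched for 2 of the 14 interferon-linked genes (14.3%), Trim30c and Trim38, and for 4 of the 38 other TRIM genes (10.5%), Trim15, Trim31, Trim45 and Trim46. Over all genes with a window the share was 9.55%, close to both.

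The windows of Trim30a, Trim30c and Trim30d were aligned with each other, and that of Trim30b was not. Those of Trim30a and Trim30c aligned at only 199 positions (175 identical), with 202 gap positions, against 10 for Trim30a and Trim30d. The Trim30a and Trim30d windows were identical at 277 of 295 aligned positions (93.9%), and both held TTTCTTTTTC. The letters of Trim30c aligned to that match read TTCCTTTTTC, the substitution T3C counted from 1 at the 5′ end of the 10-letter match, and no ISRE core match was found in its window. The Trim12a and Trim5 windows were identical over all 241 aligned positions, with 118 gap positions, and both held TTTCTGTTTC, as did Trim12c. Trim34a held TTTCAGTTTC. The Trim34b window held no ISRE core match, although the coding sequences of Trim34a and Trim34b were 98.2% identical. Their windows were identical at only 156 of 258 aligned positions (60.5%), with 84 gap positions. The Trim34b letters aligned to the Trim34a match read TCTGCCTAGC. Whether these 2 windows are related sequence was not tested, so the lack of a match need not be a lost element. A match in a window is a description of letters and not evidence of binding, and a window with no match says nothing about elements elsewhere. The transcript with the highest TPM began far from the RefSeq start for Trim26 (17488 bases downstream), Trim30b (-11220, upstream) and Trim38 (-12628, upstream), so those windows need not be the promoters of these transcripts.

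**Figure D1:**
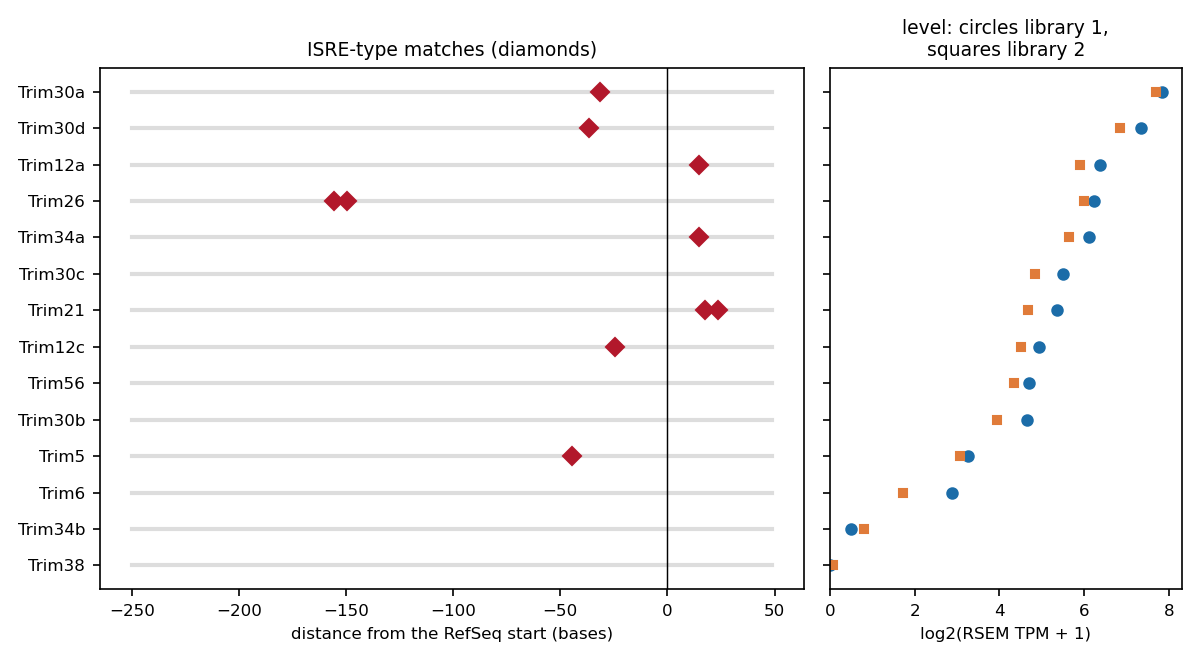
Position of ISRE core matches (diamonds, left) along the RefSeq window of each of the 14 interferon-linked TRIM genes that have one, in bases from the RefSeq start, beside the gene's level in each library (right, log2(TPM + 1), circles library 1 and squares library 2). Trim14 has no window and is not shown. Trim30a has a further window with a match, which is not drawn. Genes run from the highest to the lowest mean level, and the 5 highest genes all hold a match.

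Interferon-linked TRIM genes made up most of the TRIM RNA of this fraction. Of the 15, 14 were detected (93.3%), meaning 10 or more expected counts in both libraries, against 29 of the 52 other TRIM genes (55.8%). Among all protein-coding genes 50% were detected, so by these RSEM counts the other TRIM genes lay near that background and the interferon-linked ones above it. The program kallisto detected 52 TRIM genes where RSEM detected 43. All genes gained were other TRIM genes: Trim9, Trim43a, Trim43b, Trim50, Trim52, Trim63, Trim67, Trim69 and Trim71. The kallisto share over all protein-coding genes was not calculated, so the place of the other TRIM genes against it is not known. The interferon-linked genes held 81.0% of the summed TRIM TPM in library 1 and 79.5% in library 2. Over all members of each class, detected or not, the median level of interferon-linked genes was 39.7 TPM in library 1 against 24.3 TPM in library 2. The median of the other TRIM genes was 0.600 TPM in library 1 against 0.550 TPM in library 2. On the log2(TPM + 1) scale the medians differed by 4.67 in library 1 and by 4.03 in library 2. Among detected protein-coding genes as a whole, the median was 7.07 TPM in library 1 against 5.58 TPM in library 2. The classes overlapped: Trim34b and Trim38 of the interferon-linked class lay below the median of all TRIM genes, and Trim35 of the other class lay above Trim12c, Trim56, Trim30b, Trim5 and Trim6 in mean TPM.

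**Figure D2:**
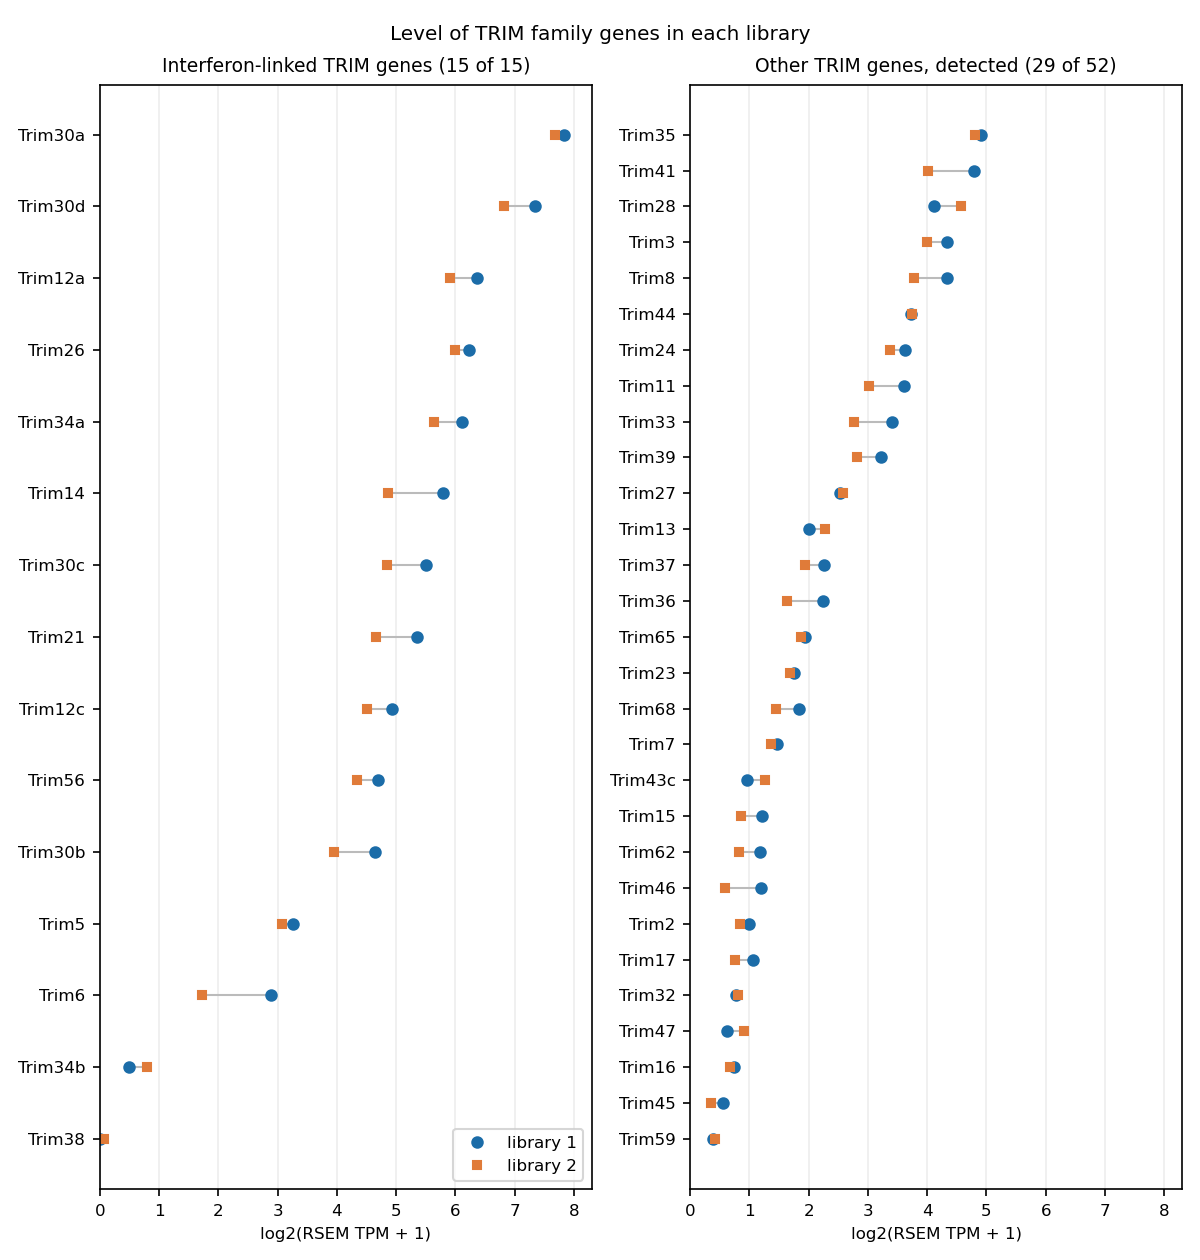
Level of the 15 interferon-linked TRIM genes (left) and of the 29 detected other TRIM genes (right) on the log2(TPM + 1) scale, circles for library 1 and squares for library 2, joined by a line. Trim30a is highest in both libraries, and in library 1 none of the genes on the right reaches the 8 highest interferon-linked genes.

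Trim30a was the most abundant TRIM gene. In mouse it is an interferon- and TLR-induced gene whose product restrains TLR signalling to NF-κB by promoting loss of TAB2 and TAB3. It reached 226.8 TPM in library 1 against 204.1 TPM in library 2, a mean of 215 ± 16.0 TPM (SD, n = 2), from 16048 and 15479 expected counts. That placed it above 98.5% of detected protein-coding genes. These are RSEM values. In kallisto Trim30a was also the highest TRIM gene, but at 72.2 TPM in library 1 against 142.6 TPM in library 2. The kallisto median of detected protein-coding genes was likewise lower in library 1, 2.48 TPM against 4.51 TPM in library 2. In RSEM Trim30d followed at 160.8 TPM in library 1 against 112.6 TPM in library 2. The remaining paralogs were lower, with Trim30c at 44.2 TPM in library 1 against 27.7 TPM in library 2, and Trim30b at 24.1 and 14.4 TPM. The order Trim30a, Trim30d, Trim30c, Trim30b was the same in both libraries, and the values of neighbours in it did not overlap.

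The Trim5, Trim12 and Trim34 genes are rodent relatives of primate TRIM5 and TRIM34, whose proteins bind retroviral capsids. Trim12a stood at 81.7 TPM in library 1 against 59.0 TPM in library 2, and Trim34a at 68.1 and 48.9 TPM. Trim12c reached 29.5 TPM in library 1 against 21.9 TPM in library 2. Trim5 was lower, at 8.62 TPM in library 1 against 7.41 TPM in library 2, in the middle of all detected protein-coding genes. Trim34b, the near-copy of Trim34a, had only 0.41 TPM in library 1 against 0.74 TPM in library 2, from 13.4 and 26.7 expected counts. Trim6, which in human makes unanchored ubiquitin chains that support IKKε, had 6.42 TPM in library 1 against 2.30 TPM in library 2.

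These 10 genes, from Trim6 to Trim30d, lie side by side in 289 kb of chromosome 7 (chr7:104218793-104507849), and the cluster holds 10 protein-coding genes in all, every one a TRIM gene. All 10 were detected. Together they held 62.4% of summed TRIM TPM in library 1 and 62.6% in library 2. The level did not follow position along the cluster: Trim34b at 0.41 TPM in library 1 lies between Trim12a at 81.7 TPM and Trim12c at 29.5 TPM. A second cluster in the major histocompatibility region, 73.1 kb of chromosome 17 (chr17:36837134-36910214), held genes of very different levels. Of its 5 genes, Trim26 had 74.2 TPM in library 1 against 63.1 TPM in library 2 and Trim15 had 1.31 and 0.82 TPM, while Trim10, Trim31 and Trim40 had 0 counts in both libraries.

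**Figure D3:**
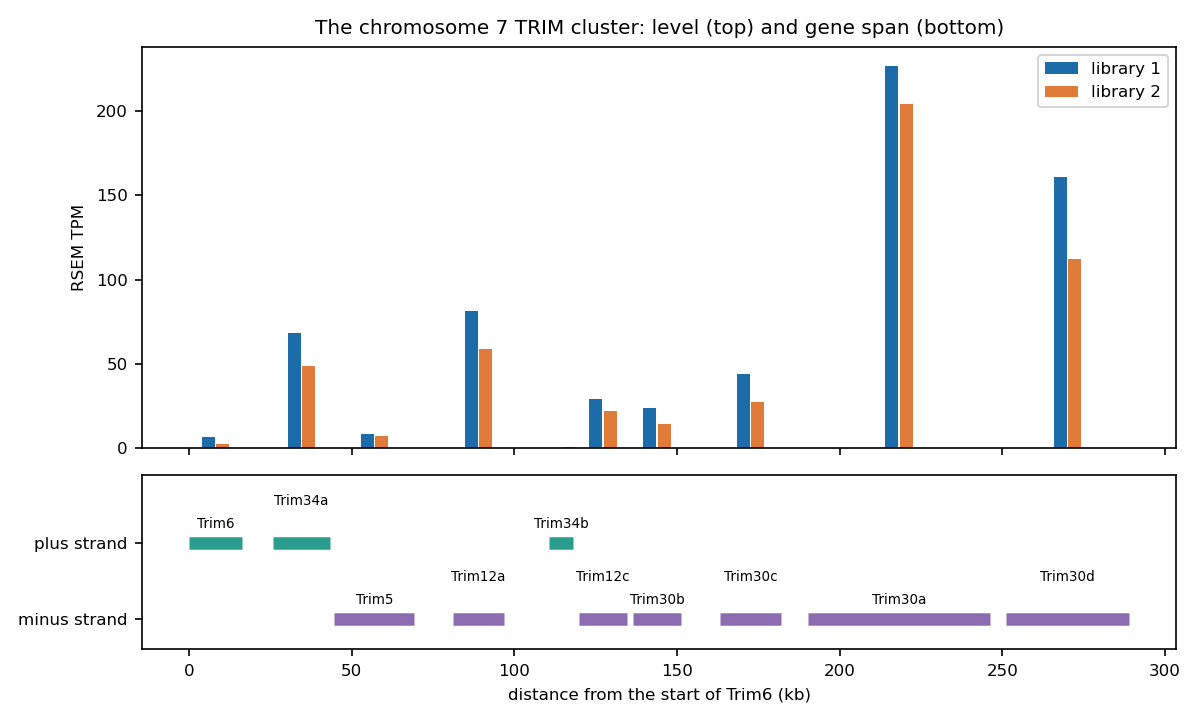
TPM of the 10 TRIM genes of the chromosome 7 cluster (top; blue bars library 1, orange bars library 2) above the span and strand of each gene (bottom), by distance in kb from the start of Trim6. The tallest pair of bars is Trim30a at 226.8 TPM in library 1 against 204.1 TPM in library 2, and Trim34b is the lowest.

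Outside that cluster lay 5 interferon-linked genes. Trim26, whose product in mouse and human targets nuclear IRF3 for degradation, was the highest of them, with the values just given. Trim14, a RING-less protein that acts as an adaptor at mitochondrial MAVS, had 54.6 TPM in library 1 against 28.1 TPM in library 2. Trim21, the cytosolic Fc receptor that directs antibody-coated virus to the proteasome, had 39.7 TPM in library 1 against 24.3 TPM in library 2. Trim56, a ligase that acts on STING and TLR3 signalling, had 24.8 TPM in library 1 against 19.1 TPM in library 2. Trim38, which damps TLR signalling, was the single interferon-linked gene not detected, with 0 counts in library 1 and 2 counts in library 2. The 8 interferon-linked genes with an ISRE core match had a median of 63.6 TPM (8.02 to 215.5), against 11.8 TPM (0.025 to 36.0) for the 6 with a window and no match. The ranges overlapped, members of this family share sequence, and no test was made. Trim14 had no window and is in neither set. For Trim26, Trim30b and Trim38 the window lies far from the start of the transcript with the highest TPM.

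Among the other TRIM genes none reached the top 10% of detected protein-coding genes, where 5 interferon-linked genes lay. The highest was Trim35, at 29.1 TPM in library 1 against 26.9 TPM in library 2. Trim41, a broadly expressed ligase, followed at 26.7 TPM in library 1 against 15.2 TPM in library 2. Trim8, a regulator of NF-κB and cytokine signalling, had 19.3 TPM in library 1 against 12.7 TPM in library 2. Trim44, which has no RING finger, had 12.2 TPM in library 1 against 12.4 TPM in library 2, and Trim11 had 11.2 and 7.08 TPM. All 10 genes of the signalling and ubiquitin group were detected. Within it Trim39 (8.34 TPM in library 1 against 6.05 TPM in library 2) and Trim27 (4.79 and 4.99 TPM) lay near the middle of detected genes, Trim65 (2.82 and 2.65 TPM) and Trim68 (2.58 and 1.72 TPM) lay lower, and Trim62 (1.27 and 0.77 TPM) and Trim47 (0.53 and 0.88 TPM) were lowest.

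The TIF1 group links ubiquitin ligase activity to chromatin through a PHD finger and bromodomain. Trim28, the corepressor recruited by KRAB zinc finger proteins, had 16.3 TPM in library 1 against 22.7 TPM in library 2. Trim24, a nuclear receptor cofactor, had 11.3 TPM in library 1 against 9.31 TPM in library 2, and Trim33, a regulator of SMAD signalling, had 9.60 and 5.78 TPM. Trim66 was not detected, with 3 counts in library 1 and 4 in library 2. In the group with NHL repeats, Trim3 had 19.2 TPM in library 1 against 14.9 TPM in library 2. Trim2 (0.98 TPM in library 1 against 0.80 TPM in library 2) and Trim32 (0.70 and 0.74 TPM) were among the lower detected genes, and Trim71, a stem cell gene, had 0 counts in both libraries.

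In RSEM, genes of muscle, neuron and germline were low. Of the 8 genes with a COS box or a muscle role, Trim36 (3.74 TPM in library 1 against 2.12 TPM in library 2) and Trim46 (1.29 and 0.51 TPM) were detected. In RSEM the sarcomere ligase genes Trim54, Trim55 and Trim63 had 0 counts in both libraries, and Trim9 and Trim67 had 1 count in library 1 and 0 in library 2. The programs differed here: kallisto gave Trim63 55.1 and 87.7 counts, Trim67 121.9 and 122.1 counts, and Trim9 19.1 and 26.4 counts in libraries 1 and 2. By RSEM Trim72, a membrane repair gene of muscle, had 4.68 counts in library 1 and 2 in library 2. Of 9 germline or placenta genes 1 was detected by RSEM, Trim43c, at 0.94 TPM in library 1 against 1.41 TPM in library 2. In RSEM Trim69, with 8 counts in library 1 and 15 in library 2, was the highest TRIM gene below the detection limit. Trim59, with 18 and 21 counts, was the lowest other TRIM gene above that limit. Of the 2 genes with a transmembrane segment, Trim13 had 3.02 TPM in library 1 against 3.86 TPM in library 2, and Trim59 had 0.31 and 0.34 TPM. The ARF-domain gene Trim23 had 2.37 TPM in library 1 against 2.23 TPM in library 2, Trim37, a MATH-domain ligase, had 3.76 and 2.83 TPM, and Trim45 had 0.46 and 0.27 TPM. The remaining detected genes were Trim7 (1.75 TPM in library 1 against 1.58 TPM in library 2), Trim17 (1.09 and 0.69 TPM) and Trim16 (0.67 and 0.59 TPM). Trim29, Trim43a, Trim43b, Trim50, Trim58 and Trim75 had 1 to 5 RSEM counts in library 1 and 0 to 15 in library 2. Kallisto gave more for several genes low in RSEM. In libraries 1 and 2 it gave Trim43a 12.3 and 30.7 counts and Trim43b 46.4 and 54.4 counts. Trim50 had 17.9 and 34.9 kallisto counts, and Trim69 had 13 and 24. In all, 12 TRIM genes, none of them interferon-linked, had 0 RSEM counts in both libraries, namely those given above and Trim42, Trim52, Trim60, Trim61 and Trim80. Of these, Trim52, Trim63 and Trim71 had over 10 kallisto counts in both libraries. Trim52 had 3.67 kallisto TPM in library 1 and 6.39 in library 2. That is above the kallisto medians of detected protein-coding genes, 2.48 and 4.51 TPM. A count of 0 allows up to 3 counts within a program's own assignment of reads, which is 0.152 CPM (counts scaled to the library's total) in library 1 and 0.174 CPM in library 2, counting error only.

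Several of these values depend on how reads were divided among near-copies. Of the 31-base words in Trim34b transcripts, 69.0% also occur in Trim34a, so the low level of Trim34b and the level of Trim34a rest on the remaining words. For Trim5 53.3% of words were shared with other genes, 37.9% with Trim12c, and for Trim12c 48.1% were shared. Trim30a and Trim30d each shared 11.9%, at coding sequences 90.2% identical. The detected Trim43c shared 71.8% of its words, mostly with Trim43a and Trim43b, and its assignment is uncertain. Genes on the opposite strand matter too, because it is not stated whether counting used the strand. Trim14 overlaps Nans by 9852 bases on the opposite strand and shares 30.4% of its words with it, and Trim13 overlaps Dleu2 by 3108 bases on the opposite strand. Nans had 260 counts in library 1 and 156 in library 2, fewer than Trim14 with 1565 and 781. Dleu2 had 4583 counts in library 1 and 3752 in library 2, against 87 and 116 for Trim13. Trim13 shared words with Gm9359 (28.7%) and with no other gene. Trim43c overlaps 9330159M07Rik by 7955 bases on the opposite strand. That gene had 215 counts in library 1 and 268 in library 2, against 33.6 and 51.4 for Trim43c. On the same strand, Trim47 and Trim65 overlap by 5365 bases. Trim17 overlaps Hist3h2a by 2146 bases on the same strand and shares 18.2% of its words with it. Hist3h2a had 1033 counts in library 1 and 349 in library 2, against 78.0 and 44 for Trim17.

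Nuclear RNA includes unspliced and partly spliced RNA, so the transcript class that carried each gene's signal was examined. A protein-coding transcript had the highest TPM for 40 of the 43 detected TRIM genes, against 86.2% of detected protein-coding genes. The exceptions were Trim26, led by Trim26-209, a processed transcript with no annotated reading frame, and Trim28 and Trim3, each led by a retained-intron transcript in the mean of both libraries. In library 1 alone Trim28 was led by the protein-coding Trim28-201. Transcripts of any class other than protein-coding, called non-coding here, held over 50% of TPM for 5 TRIM genes, while 19% of all detected protein-coding genes passed that level. The 5 were Trim26 (72.7%), Trim28 (72.7%), Trim3 (62.6%), Trim47 (57.4%) and Trim24 (50.7%). Trim24 lay at the threshold, with 48.9% in library 1 and 52.7% in library 2, and by counts its non-coding share was 33.2%. The median non-coding share was 6.03% over detected TRIM genes, against 21.1% over all detected protein-coding genes. For 16 of the 43 the annotation lists only protein-coding transcripts, so their share is 0 by construction. These are RSEM values. In kallisto a protein-coding transcript led 42 of the 52 TRIM genes it detected, a lower share than in RSEM. Of those 52, 12 had over 50% of TPM in non-coding transcripts, a higher share than in RSEM. The kallisto shares over all protein-coding genes were not calculated, so the place of the TRIM genes against them is not known.

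Trim26 was the clearest case, since its reads and its TPM gave the same picture. Trim26-209, 2249 bases long, had 27.9 TPM from 1222 counts in library 1 and 27.3 TPM from 1253 counts in library 2. A retained-intron transcript of 4338 bases had 1485 counts in library 1 and 974 in library 2, and the main protein-coding transcript Trim26-201 had 739 and 491. Non-coding transcripts thus held 76.4% of the gene's counts. Trim12a also divided its counts this way, with 54.4% in non-coding transcripts, mostly the retained-intron transcript Trim12a-205 with 1210 counts in library 1 and 821 in library 2. Trim7 had 52.6% of its counts in non-coding transcripts, from 82 counts in library 1 and 85.6 in library 2.

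For Trim28 and Trim3 the picture turned on short transcripts. Trim28-203, a retained-intron transcript of 565 bases, gave 5.22 TPM from 40.4 counts in library 1 and 12.2 TPM from 94.7 counts in library 2. The 3245-base coding transcript Trim28-201 gave 5.96 TPM from 388 counts in library 1 and 4.70 TPM from 321 counts in library 2. In counts, 28.4% of Trim28 and 21.9% of Trim3 lay in non-coding transcripts. Trim21 differed likewise, with 43.0% of TPM but 11.3% of counts in non-coding transcripts. In RSEM the coding transcript Trim30a-201 held 92.2% of Trim30a TPM in library 1 and 94.3% in library 2, while in kallisto it held 70.2% and 79.1%. The non-coding share of Trim30a was 6.81% of RSEM TPM and 23.8% of kallisto TPM. For Trim47, with 22 counts in library 1 and 19 in library 2, the non-coding share was 7.55% in library 1 and 87.5% in library 2, and no level can be set at that depth.

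**Figure D4:**
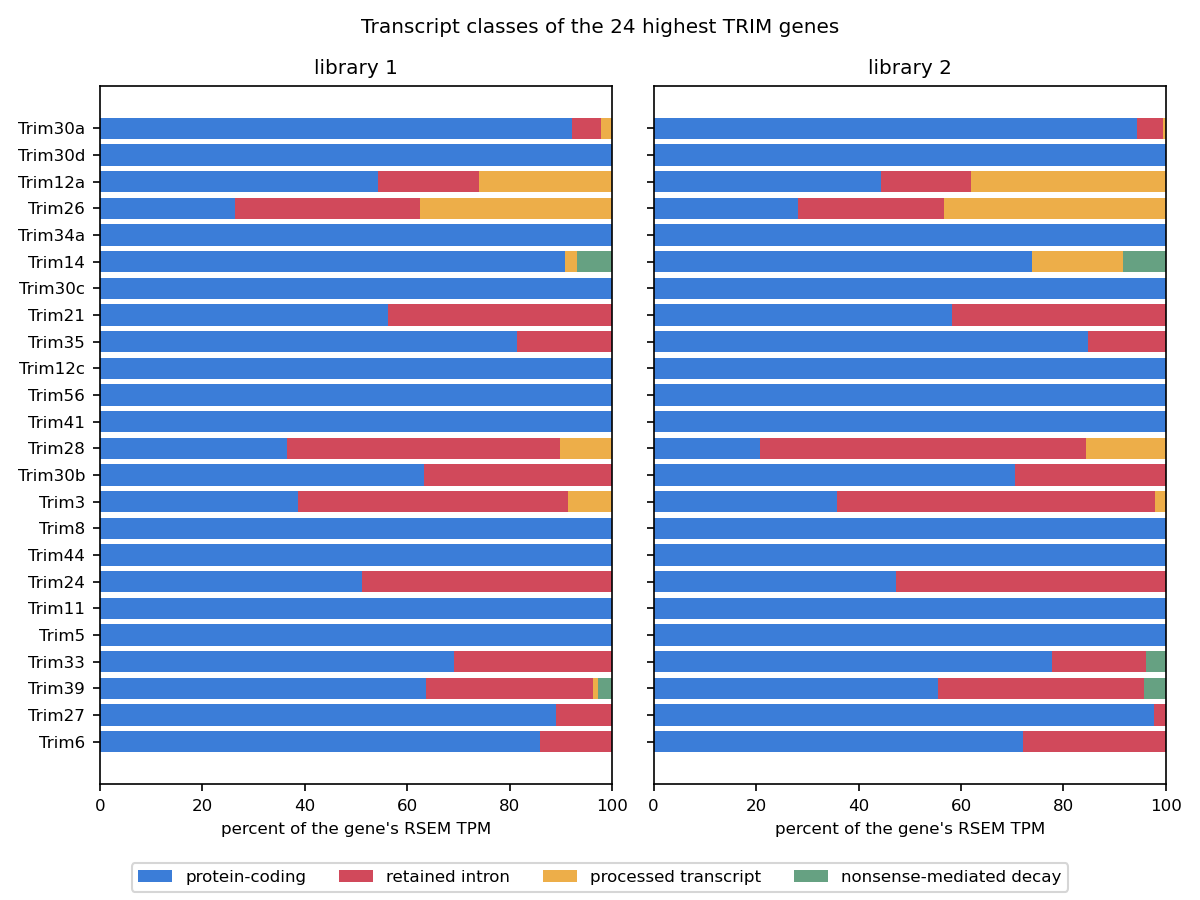
Percent of each gene's TPM in protein-coding, retained-intron, processed and nonsense-mediated-decay transcripts for the 24 highest detected TRIM genes, in library 1 (left) and library 2 (right). Trim26, Trim28 and Trim3 have less than 50% in protein-coding transcripts in both libraries, and Trim30a has over 90% in these RSEM values.

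The leading transcript was the same in RSEM and kallisto, the programs whose layouts the deposited tables have, for 33 of the 43 detected TRIM genes, against 71.7% of detected protein-coding genes. Within RSEM it was the same in both libraries for 31 of the 43, against 78.5% of detected protein-coding genes. Leaders were compared between programs by the mean of both libraries, and in the 3 examples that follow the difference did not hold in each library. For Trim12a kallisto gave the 562-base processed transcript Trim12a-206 in both libraries, whereas RSEM gave Trim12a-203 in library 1 and Trim12a-206 in library 2. Trim34a was led by Trim34a-201 in kallisto in both libraries. In RSEM Trim34a-203 led in library 1, with 35.1 TPM against 28.5 TPM for Trim34a-201, and Trim34a-201 led in library 2, with 26.5 TPM against 21.6 TPM for Trim34a-203. For Trim41 RSEM gave the 3432-base Trim41-201 in both libraries, with 94.4% of counts in library 1 and 97.3% in library 2. In kallisto Trim41-201 led in library 1, with 3.80 TPM against 2.90 TPM for the 429-base Trim41-202, and Trim41-202 led in library 2, with 7.69 TPM against 6.72 TPM. Trim52 also differed between the programs: it had 0 counts in RSEM in both libraries and 3.67 TPM in library 1 against 6.39 TPM in library 2 in kallisto, all of it in the 584-base processed transcript Trim52-202.

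Between the libraries, TRIM levels differed by less than 2-fold on the main scale once the shift of the whole scale was removed. The log2 ratio of TPM + 1, library 1 over library 2, was centred so that detected protein-coding genes had a median of 0, against 0.27 before centring. None of the 30 TRIM genes with a mean of 100 or more counts was more than 2-fold apart, against 1.53% of protein-coding genes (0.864% higher and 0.663% lower in library 1). With so small a share, 0 of 30 does not set the TRIM genes apart from other genes. Over protein-coding genes with that mean count, the 5th and 95th percentiles of the ratio were -0.58 and 0.68. The pseudocount of 1 also shrinks the ratios of genes at few TPM. The median ratio of the detected interferon-linked genes was 0.19, with 10 of 14 higher in library 1, and that of the other TRIM genes was -0.07, with 13 of 29 higher, where 50% of protein-coding genes were higher by construction. The median of 12 interferon-stimulated genes listed for comparison was 0.36, with 10 of 12 higher in library 1 and Mx1 more than 2-fold apart (1.21). The direction of both TRIM medians turned with the program: kallisto gave -0.18 for interferon-linked genes and 0.14 for the other TRIM genes, whose median was also above 0 with no centring (0.20) and at a minimum of 50 counts (0.0103).

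Single genes lay further out. Trim6 had the largest ratio, 0.89, from 347 counts in library 1 and 133 in library 2, and it passed 2-fold on 4 of the 5 other scales tried (1.09 to 1.17) but not with kallisto (0.56). Trim14 had 0.66 and Trim41 had 0.50. Trim28 had -0.73, and its counts, 493 in library 1 and 497 in library 2, differed less than its TPM, which includes the short transcript Trim28-203 described above. With 1 library on each side, these differences have no replicate check.

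**Figure D5:**
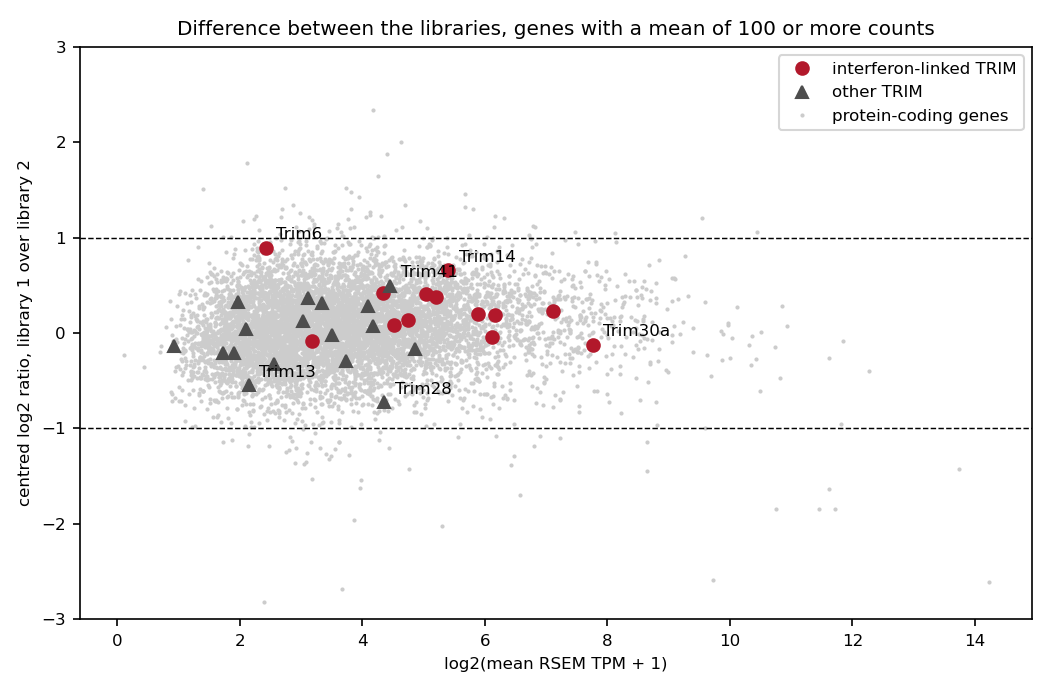
Centred log2 ratio of TPM + 1, library 1 over library 2, against mean level for protein-coding genes with a mean of 100 or more counts (grey), with interferon-linked TRIM genes as red circles and other TRIM genes as dark triangles. Dashed lines mark 2-fold, and every TRIM gene lies between them, from Trim28 at -0.73 to Trim6 at 0.89.

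TRIM ligases work with E2 partner enzymes, whose levels were also read. All 10 E2 enzyme genes listed were detected. Ube2d3, a general E2 of RING ligases, was highest at 118.6 TPM in library 1 against 100.6 TPM in library 2. Ube2n, which builds the K63-linked chains of NF-κB signalling, had 42.8 TPM in library 1 against 49.9 TPM in library 2, and Ube2e2 was lowest at 1.37 and 0.55 TPM. Of 4 family members that carry other symbols, Pml, the organiser of PML nuclear bodies, had 80.3 TPM in library 1 against 49.01 TPM in library 2. Mefv, which encodes the inflammasome protein pyrin, had 80.7 TPM in library 1 against 41.5 TPM in library 2, and Mid1, a microtubule-associated ligase, had 54.0 and 27.5 TPM. Mid2 was not detected.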

How the data were processed

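The authors deposited, for each of 2 libraries, RSEM-style gene and transcript quantifications and a kallisto-style transcript quantification. Expected counts (RSEM) and estimated counts (kallisto) were used as the authors deposited them, per the file headers, and TPM is the authors' own length-scaled level. The submitters' notes beside the files name assembly mm10 and GENCODE annotation M21; the sources used here do not give the aligner or program versions. Because TPM divides by effective length, few reads on a short transcript give a high TPM, and the 2 programs divide reads among paralogs and isoforms differently.

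Genes were joined by identifier to M21. The 67 members, the gene lists and the alternatives were chosen with earlier results of these data known. 1 gene whose symbol has the same form is not reported here. Detection was set at 10 expected counts in both libraries, fold calls at 2-fold with a mean of 100 counts and a pseudocount of 1. Named genes are all interferon-linked members, the 8 highest others, the members nearest the detection limit, those past 2-fold, those whose leading transcript differs between programs or is not protein-coding, and the members of the structural lists. Words of 31 bases were compared between all transcripts, and coding sequences and windows were aligned globally with Biopython 1.88. Promoter windows are from RefSeq, GRCm38.p6. For alternatives, expected counts were rounded to whole numbers and scaled with edgeR 4.0.16 (TMM) or DESeq2 1.42.0 in R 4.3.3; Python 3.11.15 was used otherwise. The centring and the fold call were tested on simulated counts with a far smaller pseudocount and no length scaling. That test does not cover the pseudocount of 1 on TPM. With 1 group of 2 libraries that share a donor entry, no p-value was computed.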

Additional observations from a re-analysis of the deposited data

How the results depend on the processing

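The number of detected TRIM genes was 33 to 52 under the alternatives, and 43 to 45 with 1 library left out. The number led by a protein-coding transcript was 30 to 45 of the genes each alternative detected, and 39 to 41 with 1 library left out. With kallisto it was 42 of 52. The number with over 50% of TPM in non-coding transcripts was 5 of 43, against 12 of 52 with kallisto. It was 3 of 43 with expected counts in place of TPM, an alternative chosen after seeing the data. With 1 library left out it was 4 to 6. The difference between the interferon-linked and other medians was 4.31 on the log2(mean TPM + 1) scale. It was 3.54 with kallisto, 5.09 with TPM rescaled over protein-coding genes, 3.23 over detected members, 5.39 with a pseudocount of 0.1, 4.90 with CPM from expected counts, and 4.03 to 4.67 with 1 library left out. The count of members past 2-fold was 0, and it was 1 with kallisto (Trim28), and 1 with a pseudocount of 0.1, with TMM, with DESeq2 size factors and with no centring (Trim6 each time). The median ratio of interferon-linked genes, 0.19, was -0.18 with kallisto and 0.47 with no centring. That of other TRIM genes, -0.07, was 0.14 with kallisto, 0.20 with no centring, 0.0103 at a minimum of 50 counts and -0.25 with no minimum. Dropping the centring adds the scale shift of 0.27 by construction; the cause of the other changes was not tested. No paired analysis was possible because there is only 1 group. Depth limits the genes under about 50 counts, whose isoform shares and ratios cannot be set.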
